A study of Sorghum bicolor with 63 samples.

Results

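Lateral roots and primary roots of sorghum were compared at the end of 24 h without nitrate, with 3 libraries of each tissue, which are 6 of the 63 libraries of the series. The members were taken from the sample labels, which name the tissue, the time point and the treatment, and each gene was matched between the tables of both tissues by its identifier. The study followed leaf, lateral root and primary root of the inbred line BTx623 through nitrate withdrawal and resupply, as part of work on gene regulatory networks of nitrogen uptake in maize and sorghum. All plants of both groups had the same genotype and the same history: hydroponic culture with nitrate up to the stage with 5 leaves, then 24 h in a solution in which chloride and sulphate salts replaced the nitrate salts. The growth solution is named differently in the labels and in the methods. Other root groups were used beside them, namely plants on normal nitrogen at 0 h and plants after 0.5 and 3 h of deprivation. Plants at 24.5 and 48 h, counted from the start of deprivation, had been given nitrate back after 24 h of deprivation. The last group was labelled as the nitrogen recovery control at 48 h, and the sources used here do not describe its nitrate supply. Each library came from tissue pooled from 5 plants by the labels, and from 10 to 15 plants by the methods. The labels call the pools biological replicates but do not say that they came from separate tanks, so the p-values measure the spread between these pools.

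Lateral roots are branches that arise inside a parent root and carry much of the surface through which a cereal seedling takes up nutrients, whereas the primary root is the first root of the embryo. Nitrate enters root cells through transporters of the NRT1/NPF family and, at low supply, through high-affinity NRT2 transporters, which work with the partner protein NAR2. Nitrate reductase and nitrite reductase then turn it into ammonium, which glutamine synthetase (GS) and glutamate synthase (GOGAT) build into amino acids.

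The values are TPM, a read share corrected for transcript length, which scale each library to the same total by itself, so that a level is a share of the RNA of its library. A gene was tested when its TPM was at least 1 in at least 3 of the 6 libraries, and differences are lateral minus primary root on the log2(TPM + 1) scale, where the differences of genes with low TPM come out too small. A gene is called here when its Benjamini-Hochberg adjusted p in limma is under 0.05 and its absolute log2 difference is over 1, the thresholds of the study. In bulk tissue, fewer cells of a type and less RNA per cell cannot be told apart. The 6 libraries listed between 20700 and 21543 genes at a TPM of at least 1. On the log2 scale across genes, the correlation was 0.978 to 0.981 among lateral root libraries, 0.965 to 0.977 among primary root libraries and 0.937 to 0.967 between the tissues. Lateral root replicate 1 lay nearest the other tissue: its correlation of 0.967 with primary root replicate 1 was the highest between tissues. The list of leaf markers, LHCB5, PEPC6 and PPDK2, summed to 112 to 169 TPM in the root libraries, against 21530 to 23811 TPM in leaf at 24 h. PEPC6, at 63.6 to 114 TPM in root and a mean of 12.3 TPM in leaf, did not mark leaf in these data. The 9 other photosynthesis genes with a description summed to 18.5, 34.4 and 41.7 TPM in lateral root and to 26.3, 47.1 and 119 TPM in primary root, the highest in primary root replicate 2, against 16778 to 28237 TPM in leaf.

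Among the other root libraries, the library labelled lateral root 0 h replicate 1 went against its label. It held 4281 TPM of LHCB5 and 15523 TPM of PPDK2, where replicates 2 and 3 held 5.25 and 2.95 TPM of LHCB5 and 44.6 and 25 TPM of PPDK2. Across genes its correlation with the mean of leaf at 24 h was 0.968, against 0.601 and 0.576 for replicates 2 and 3. Results at 0 h are given with and without it. The library labelled primary root 24.5 h replicate 3 listed 30736 genes at a TPM of at least 1, against 21377 and 21381 in its group, and results at 24.5 h are likewise given both ways.

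Most large differences between the tissues at 24 h were excesses in primary root. Of 21306 genes tested, 1122 were called (5.27%): 989 were higher in primary root (4.64%) and 133 higher in lateral root (0.624%). Calls higher in primary root thus made up 88.1% of all calls. The median difference over all tested genes was 0.08, on the side of lateral root. Without the fold threshold, 3987 genes had an adjusted p under 0.05 in limma with Benjamini-Hochberg adjustment, 1825 higher in lateral and 2162 higher in primary root. These counts include the called genes. Among the genes that missed only the fold threshold, more were higher in lateral root than in primary root. The large differences lay on the side of primary root: 104 called genes exceeded a log2 difference of 2 there, and 2 did in lateral root. All 1122 called genes had libraries that did not overlap between the tissues, as did 42.5% of all genes tested. Averaged over both tissues, called genes were lower in expression than tested genes in general. The median of this mean level was 8.05 TPM for the 133 genes and 9.76 TPM for the 989, beside 14.4 TPM over all genes tested. That mean includes the tissue in which a called gene was low. In the tissue with the higher level, the median was 11.6 TPM for the 133 and 14.9 TPM for the 989. Without lateral root replicate 2 the count of calls was 746.

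**Figure D1:**
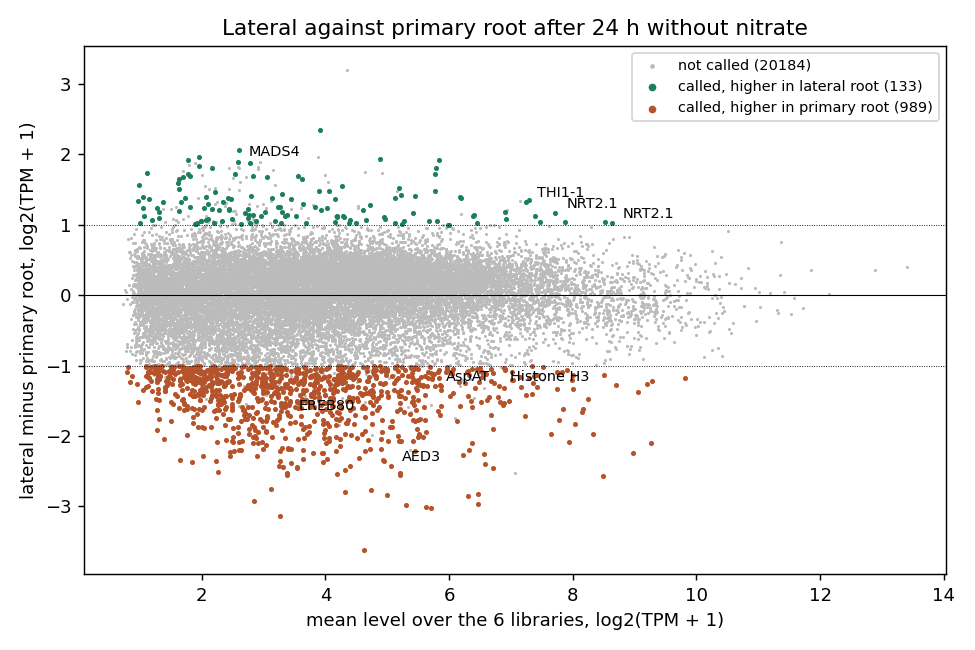
Each point is 1 of 21306 genes, with the mean level over the 6 libraries on the x axis in log2(TPM + 1) and the difference lateral minus primary root on the y axis on the same scale; green points are the 133 genes called higher in lateral root, orange points the 989 called higher in primary root, and dotted lines mark a log2 difference of 1 in each direction. The called points reach much farther below 0 than above it.

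Of the nitrogen transporters, 2 of 14 tested were called (14.3%, beside 5.27% of all genes), and both were high-affinity transporters higher in lateral root. The study's sorghum network names 2 identifiers NRT2.1, the main inducible high-affinity nitrate transporter of plant roots. SORBI_3004G009500 was at 703, 576 and 337 TPM in lateral root replicates 1 to 3, against 276, 229 and 255 TPM in primary root. SORBI_3004G009400 was at 402, 322 and 162 TPM in lateral root, against 152, 101 and 120 TPM in primary root. For both, the lowest lateral root library, replicate 3, lay above the highest primary root library, and lateral root varied far more among its pools. The mean TPM was 2.13-fold higher in lateral root for SORBI_3004G009500 (log2 difference 1.03, SE 0.25, adjusted p = 0.0271 in limma with Benjamini-Hochberg adjustment) and 2.37-fold higher for SORBI_3004G009400 (log2 difference 1.16, SE 0.31, adjusted p = 0.0393). How the authors' quantification divided reads between these identifiers of the same name is not known here. Both calls stood close to the threshold: SORBI_3004G009400 lost its call under 9 of 15 alternatives (adjusted p from 0.0101 to 0.180) and SORBI_3004G009500 under 8 of 15 (0.00679 to 0.432). Each was lost in particular without lateral root replicate 1 or 2 or any 1 primary root library.

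NRT2.5, another high-affinity transporter, had a difference as large as those of NRT2.1 but did not pass. Its lateral root libraries were at 173, 63.6 and 65.6 TPM and its primary root libraries at 65.6, 36.8 and 26.1 TPM, so the groups overlapped (log2 difference 1.15, SE 0.43, adjusted p = 0.0949 in limma with Benjamini-Hochberg adjustment). NAR2.1, the partner that NRT2 proteins need, did not follow them: it was at 605, 392 and 250 TPM in lateral root and at 554, 345 and 418 TPM in primary root, a log2 difference of -0.14 (adjusted p = 0.755 in limma with Benjamini-Hochberg adjustment). The low value of lateral root replicate 3 recurred in all of these genes except NRT2.5, where replicate 2 was at about its level.

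Among the other 10 network transporters that were tested none passed both thresholds, and 3 had an adjusted p under 0.05 with a smaller difference. NRT1.1, the dual-affinity nitrate transporter and nitrate sensor of Arabidopsis, was lower in lateral root, at 122, 94.7 and 93.8 TPM against 156, 158 and 142 TPM (log2 difference -0.56, adjusted p = 0.0217 in limma with Benjamini-Hochberg adjustment). NPF4.9 had a log2 difference of 0.73 and AMF1-2 one of 0.38. The ammonium transporters AMT1.1a, AMT1.3, AMT2.3 and AMT2.4 had differences between -0.50 and 0.22, with adjusted p values of 0.150 or more. NPF2.3, the most abundant of these remaining transporters, was at 337 to 397 TPM in lateral root and 388 to 467 TPM in primary root. The median difference of the 14 transporters was 0.14, beside 0.08 over all genes, and 8 of them lay above 0. The fifteenth, NPF3.6, was under 1 TPM in all 6 libraries and was not tested.

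The enzymes of nitrate reduction and ammonium assimilation showed no call among the 11 tested, beside 5.27% of all genes. Of these 11, 10 had a difference above 0, beside 57.1% of all genes tested. Their median difference was 0.46, beside 0.08 over all genes tested. RFNR, the root ferredoxin-NADP reductase that supplies electrons to nitrite reduction, was at 418, 423 and 287 TPM in lateral root against 236, 221 and 225 TPM in primary root (log2 difference 0.70, SE 0.15, adjusted p = 0.0213 in limma with Benjamini-Hochberg adjustment). GOGAT1 (SORBI_3002G402700) was at 184, 202 and 162 TPM against 127, 136 and 116 TPM (log2 difference 0.52, adjusted p = 0.0204). These were the only members with an adjusted p under 0.05 in limma, beside 3987 of all 21306 genes tested. For both the groups did not overlap, as for 42.5% of all genes tested. The cytosolic glutamine synthetase GS1-1 had a larger but more variable difference of 0.76, with lateral root at 482, 390 and 209 TPM and primary root at 231, 164 and 211 TPM (adjusted p = 0.0942 in limma with Benjamini-Hochberg adjustment). GS1-3, the most abundant gene of the class, was at 1559 to 2103 TPM in lateral root and 1460 to 1604 TPM in primary root. Nitrate reductase NR1 had a difference of 0.61, NR2 one of 0.42 and nitrite reductase NIR1 one of 0.20, all with overlapping libraries. NR3, GOGAT3 and GOGAT4 were too low to be tested.

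None of the 5 carbon genes was called, beside 5.27% of all genes, and they lay on both sides of 0. PGM, phosphoglucomutase, had a log2 difference of 0.64, PEPC6, a phosphoenolpyruvate carboxylase, one of 0.58, and G6PD1, which makes NADPH in the pentose phosphate pathway, one of 0.49, with adjusted p values of 0.0246, 0.035 and 0.0199 in limma with Benjamini-Hochberg adjustment. The other 2, PPDK2 and LHCB5, are far more abundant in leaf and had differences below 0. PPDK2, the C4 pathway's pyruvate phosphate dikinase, was at 29.5, 11.9 and 37.6 TPM in lateral root and at 57.2, 89.0 and 40 TPM in primary root, a log2 difference of -1.27 with an adjusted p of 0.0683 in limma (Benjamini-Hochberg). LHCB5 had a difference of -0.34 and was at 2.22 to 16.7 TPM in the root libraries, again highest in primary root replicate 2.

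In amino acid metabolism, aspartate aminotransferase AspAT was the 1 called gene of 7 tested (14.3%, beside 5.27% of all genes), and it was lower in lateral root. This enzyme moves amino groups between glutamate and aspartate. It was at 28.9, 24.1 and 39.9 TPM in lateral root and at 71.8, 80.4 and 75.0 TPM in primary root, 2.44-fold higher in primary root (log2 difference -1.29, SE 0.17, adjusted p = 0.0043 in limma with Benjamini-Hochberg adjustment). The gap between the groups, from 39.9 to 71.8 TPM, was wider than the range within either tissue. The call was lost under 1 of 15 alternatives, the fit of all 42 root libraries (adjusted p = 0.205). The asparagine synthetase ASN3 was at 942, 736 and 409 TPM in lateral root and 595, 435 and 493 TPM in primary root and did not pass. Differences of AlaAT3, GDH1, GDH2, AlaAT1 and ASN1 lay between -0.21 and 0.25.

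**Figure D2:**
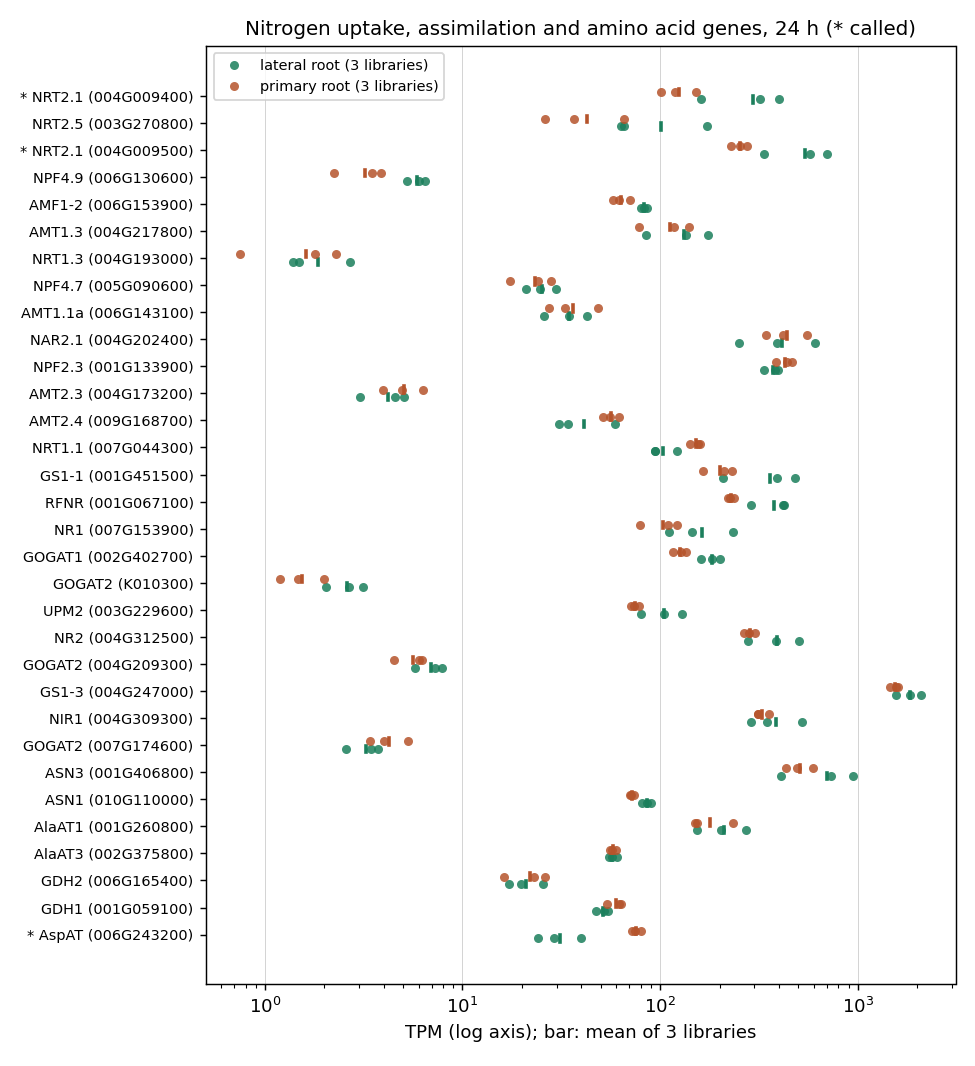
TPM on a log axis of the 32 tested network genes of nitrogen transport, nitrate assimilation and amino acid metabolism, with a point for each of 3 lateral root libraries (green) and 3 primary root libraries (orange) and a bar at each mean; a star marks a called gene, and genes of each class are ordered by their difference. The stars stand at both NRT2.1 identifiers and at AspAT, and for most other genes the points of both tissues lie close together or overlap.

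None of the 8 hormone genes of the network was called, beside 5.27% of all genes. LOG2, which by its name belongs to the enzymes that release active cytokinins, was the 1 member with an adjusted p under 0.05: it was at 45.4, 63.1 and 37.2 TPM in lateral root and at 27.1, 29.3 and 26.4 TPM in primary root (log2 difference 0.76, adjusted p = 0.0271 in limma with Benjamini-Hochberg adjustment). TIR1, an auxin receptor, had a difference of 0.66, with an adjusted p of 0.0694. The ethylene synthesis genes ACS1, ACS6 and ACS7 had differences between -0.03 and 0.27.

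Of the 224 network TFs tested, 12 were called, which is 5.36% beside 5.27% of all genes. MADS4, a MADS-box factor, was the larger of the 2 calls in lateral root, at 7.81, 10.3 and 7.10 TPM against 2.46, 1.81 and 0.597 TPM in primary root (log2 difference 1.90, SE 0.30, adjusted p = 0.00744 in limma with Benjamini-Hochberg adjustment). Its difference was also above 0 in the 6 other groups, from 0.92 to 2.19 on the log2 scale, with 1.41 at 0 h (1.96 without lateral root replicate 1). The other, bZIP34, was barely expressed, at 1.66 to 1.88 TPM in lateral root and at 0.345, 0 and 0 TPM in primary root.

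The 5 largest TF differences towards primary root came from 5 families. The AP2/ERF factor EREB80 was at 3.58, 3.43 and 4.49 TPM in lateral root and 10.1, 17.8 and 17.6 TPM in primary root (log2 difference -1.70, adjusted p = 0.00451 in limma with Benjamini-Hochberg adjustment). WRKY94 was at 23.2, 10.8 and 16.2 TPM against 62.8, 49.2 and 45.3 TPM (-1.64, adjusted p = 0.00702). The third, bZIP60, was at 23.5, 19.3 and 20.9 TPM against 51.0, 70.1 and 65.1 TPM (-1.50, adjusted p = 0.00165). The zinc finger factor GATA13 and the factor MYB50 had differences of -1.34 and -1.33. The remaining 5 calls were THX3, Orphan149, GLK9, GATA28 and the growth-regulating factor GRF12, with differences from -1.33 to -1.14.

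Among families with at least 4 members tested, chosen after their values were seen, THX, MADS and ALF lay wholly and NAC mostly on one side of 0, while 57.1% of all genes tested had a difference above 0. Of 28 NAC factors tested, 24 had a difference above 0, with a median of 0.22 and no call. NAC38 was the most abundant of those with an adjusted p under 0.05, at 554 to 726 TPM in lateral root and 416 to 430 TPM in primary root. All 5 trihelix factors (THX) had a difference below 0, with a median of -0.62, and THX3 was the 1 called. All 5 MADS and all 5 ALF factors lay above 0, with medians of 0.50 and 0.23. Among the factors tied to nitrate signalling, NLP17 and NLP7 had differences of 0.75 each, with adjusted p values of 0.00446 and 0.0119 in limma with Benjamini-Hochberg adjustment, and NLP6 one of 0.49. NLP17 was at 51.6, 53.3 and 55.5 TPM in lateral root and at 34.2, 30.1 and 30.1 TPM in primary root, among the tightest separations of the TFs. MADS68 (0.998 on the log2 scale) and Orphan207 (0.97) fell just under the fold threshold. Over all 282 network genes tested, 15 were called (5.32%), with a median difference of 0.09, both close to the values over all genes.

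**Figure D3:**
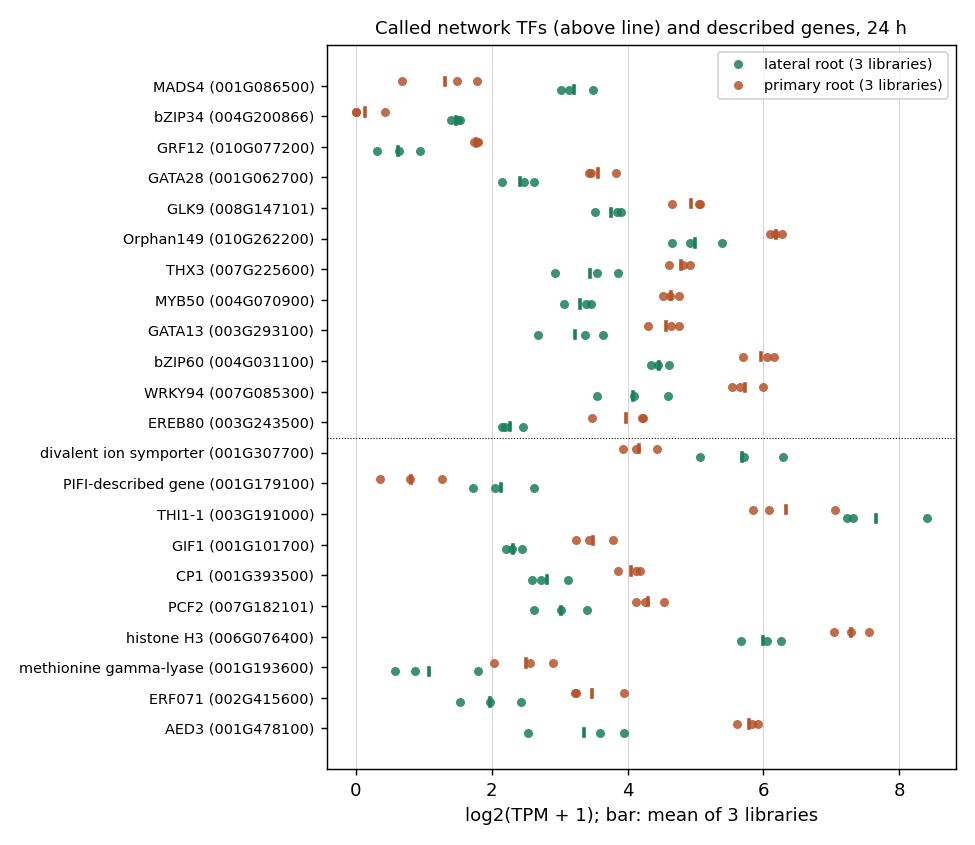
Levels in log2(TPM + 1) of the 12 called network TFs, above the dotted line, and of the 10 called genes that have a description in the study's tables, below it; each point is 1 library, green for lateral and orange for primary root, and bars are means of 3. The points of the tissues do not overlap for any of these 22 genes, as for all 1122 called genes. Of the 22, 17 are higher in primary root, beside 88.1% of all calls.

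Most called genes have no name in the sources used here. Descriptions in the study's tables, most of them projected from Arabidopsis or rice, covered 354 identifiers, which the study chose on these samples; 287 were tested and 10 called (3.48%, beside 5.27% of all genes). Higher in primary root was the aspartyl protease AED3 (SORBI_3001G478100), at 55.9, 48.0 and 59.7 TPM against 11.1, 4.81 and 14.4 TPM in lateral root (log2 difference -2.43, SE 0.32, adjusted p = 0.00421 in limma with Benjamini-Hochberg adjustment). A gene for histone H3 (SORBI_3006G076400), the core histone made mostly while DNA is copied, was at 130, 155 and 188 TPM in primary root and at 65.7, 50.1 and 75.7 TPM in lateral root (-1.29, adjusted p = 0.00485). GIF1 (SORBI_3001G101700), a coactivator that acts with growth-regulating factors, was at 8.44, 9.84 and 12.8 TPM against 3.91, 3.64 and 4.48 TPM (-1.17, adjusted p = 0.00785). The TCP factor PCF2, the factor ERF071, the calcium-binding protein CP1 and methionine gamma-lyase were also called higher in primary root, with differences from -1.49 to -1.24. Methionine gamma-lyase (SORBI_3001G193600) lost its call under 7 of 14 alternatives.

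Genes of dividing cells and of mature root tissue were few among the descriptions. The only member of the cell cycle list that had a description was at 5.71 to 9.59 TPM in lateral root and 6.80 to 10.1 TPM in primary root and was not called. A described MCM family gene (SORBI_3009G087000), of the complex that opens DNA for copying, was at 19.5 to 24.8 TPM in lateral root and 21.3 to 28.8 TPM in primary root and was not called either. The share of dividing cells was not tested. The 3 peroxidases summed to 73.6 to 94.9 TPM in lateral root and 49.7 to 77.0 TPM in primary root, and neither they nor the single aquaporin or suberin gene was called.

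Higher in lateral root were 3 described genes. THI1-1 (SORBI_3003G191000) was at 338, 149 and 159 TPM against 132, 67.0 and 56.6 TPM in primary root (log2 difference 1.32, SE 0.38, adjusted p = 0.0471 in limma with Benjamini-Hochberg adjustment), but lost its call under 10 of 15 alternatives. A gene described as a divalent ion symporter (SORBI_3001G307700) was at 77.5, 51.2 and 32.5 TPM against 20.6, 16.5 and 14.3 TPM (1.52, adjusted p = 0.013). A gene described by post-illumination chlorophyll fluorescence increase (SORBI_3001G179100) was at 2.32 to 5.14 TPM against 0.280 to 1.40 TPM and lost its call under 7 of 14 alternatives. Of the described genes that passed on the adjusted p alone, the auxin influx carrier LAX3 was lower in lateral root (-0.75), as was the transporter NPF3.1 (SORBI_3010G109200, -0.88), while the plastid glutamine synthetase SORBI_3006G249400 had a difference of 0.52.

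The largest differences of all fell in genes without a description. SORBI_3001G513100 was at 3.94, 1.24 and 3.52 TPM in lateral root and at 48.1, 37.6 and 48.3 TPM in primary root, 15.4-fold higher in primary root (log2 difference -3.62, SE 0.29, adjusted p = 0.00121 in limma with Benjamini-Hochberg adjustment). SORBI_3004G197800 was at 10.3, 10.1 and 10.6 TPM against 89.1, 112 and 76.4 TPM (-3.03, adjusted p = 3.3e-04). SORBI_3001G261440 was at 21.9, 15.5 and 20.3 TPM against 143, 150 and 177 TPM (-2.97, adjusted p = 3.3e-04). The last 2 had the smallest adjusted p values of the comparison. The other 7 of the 10 largest differences towards primary root were SORBI_3004G275100, SORBI_3003G289601, SORBI_3009G216050, SORBI_3003G316350, SORBI_3004G262900, SORBI_3004G100100 and SORBI_3003G432700, from -3.13 to -2.83. All 10 kept their call under every alternative run.

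The 10 largest differences towards lateral root were smaller and less even. The first, SORBI_3001G314400, was at 29.1, 21.3 and 21.7 TPM in lateral root and 2.96, 4.56 and 4.21 TPM in primary root (log2 difference 2.35, SE 0.19, adjusted p = 0.00121 in limma with Benjamini-Hochberg adjustment). SORBI_3006G011400 was at 119, 95.3 and 55.9 TPM against 29.5, 16.5 and 21.4 TPM (1.93, adjusted p = 0.00654). SORBI_3004G156250 was at 5.45, 6.32 and 5.94 TPM against 1.01, 1.51 and 0.514 TPM (1.81, adjusted p = 0.00311). MADS4 was also among the 10. In others 1 library set the size: SORBI_3003G168700 was at 2.21, 6.23 and 19.5 TPM in lateral root, and SORBI_3005G110493, ENSRNA049485579 and ENSRNA049485586 were likewise several times higher in replicate 3 than in replicate 1. The last 2 of the 10, SORBI_3002G014500 and SORBI_3003G235500, had primary root libraries from 4.16 to 21.2 TPM and from 9.59 to 57.1 TPM. Their calls were less stable than those towards primary root: SORBI_3003G235500 lost its call under 12 of 15 alternatives, SORBI_3003G168700 under 11 of 15, ENSRNA049485579 under 8 of 15, SORBI_3005G110493 under 7 of 11, SORBI_3002G014500 under 6 of 15, ENSRNA049485586 under 2 of 11 and SORBI_3006G011400 under 1 of 15. SORBI_3001G314400, SORBI_3004G156250 and MADS4 kept theirs under each alternative that tested them.

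Leaf abundance went with some of these genes. Of the 10 largest towards lateral root, 6 had a mean TPM in leaf at 24 h above that of both root tissues, among them SORBI_3001G314400 at 108 TPM and SORBI_3003G168700 at 32.3 TPM; of the 10 largest towards primary root, 1 did. Over the complete lists it was 25 of the 133 (18.8%) and 126 of the 989 (12.7%), beside 21.5% of all genes tested. The photosynthesis genes given above did not stand higher in lateral root: 0 of the 8 tested had a difference above 0. Outside that list, 2 described plastid genes had large differences towards lateral root through replicate 3 and were not called: SORBI_3002G044500, for ribosomal protein S16, was at 1.07, 1.42 and 13.3 TPM in lateral root, and SORBI_3003G171900, for a cytochrome b6-f subunit, at 2.82, 5.28 and 22.6 TPM. The same library was the highest for several of the 10 genes above. Genes nearly silent in leaf, with a mean under 1 TPM there, made up 47.4% of the 133 and 49.3% of the 989, beside 23.6% of all genes tested.

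The same genes were then followed in the root libraries of the other time points, which are separate libraries from those that made the calls. In each, lateral and primary root were compared within the time point by the same fit. Of the 133 genes higher in lateral root at 24 h, 119 were tested at 0.5 h and 64 were called higher in lateral root there (53.8%, beside 2.05% of all genes). At 3 h it was 60 of 126 (47.6%, beside 0.828%), at 48 h 65 of 127 (51.2%, beside 2.59%) and in the 48 h control 35 of 117 (29.9%, beside 0.907%). No gene of the 133 was called in the opposite direction at any of these. The median difference of the 133 was 1.15 at 0.5 h, 1.08 at 3 h, 1.08 at 48 h and 0.83 in the control.

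Of the 989 genes higher in primary root at 24 h, 420 of 958 were called higher in primary root at 0.5 h (43.8%, beside 4.44% of all genes), 573 of 956 at 3 h (59.9%, beside 5.31%), 283 of 971 at 48 h (29.1%, beside 2.11%) and 346 of 967 in the control (35.8%, beside 2.94%). In the control 3 genes of the 989 were called in the opposite direction. At 3 h 99.8% of the 956 had a difference of the same sign, beside 51.4% of all genes. The median difference was -0.97 at 0.5 h, -1.43 at 3 h, -0.79 at 48 h and -0.90 in the control, where the median of all genes lay between -0.02 and 0.05. Calls higher in primary root were 68.4% of all calls at 0.5 h, 86.5% at 3 h and 76.4% in the control, but 44.8% at 48 h.

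At 24.5 h and at 0 h, where single libraries stood apart, fewer genes were called. At 24.5 h 10 genes were called higher in lateral root (0.0455%) and 115 higher in primary root (0.523%), and 2 of 128 and 100 of 970 of the genes called at 24 h were among them. Without primary root replicate 3, 41 genes were called higher in lateral root (0.193%) and 371 higher in primary root (1.75%), among them 13 of 124 and 253 of 921 of the genes called at 24 h. At 0 h no gene passed in either direction (0%), with a smallest adjusted p of 0.1 in limma (Benjamini-Hochberg), while 3181 genes had an unadjusted p under 0.05. Without lateral root replicate 1, the library with leaf levels of LHCB5 and PPDK2, 310 genes were called higher in lateral root (1.46%) and 923 higher in primary root (4.35%), among them 49 of 121 and 336 of 959 of the genes called at 24 h. At 24.5 h 95.3% and 99.6% of the genes called at 24 h had a difference of the same sign with all libraries in the fit. Over all genes tested there, 45.6% had a difference towards lateral root and 54.4% one towards primary root. At 0 h with all libraries it was 57.7% of the genes higher in lateral root, beside 35.3% of all genes. Their median difference was 0.13, beside -0.27 over all genes. Of the genes higher in primary root it was 97.0%, beside 64.7% of all genes.

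**Figure D4:**
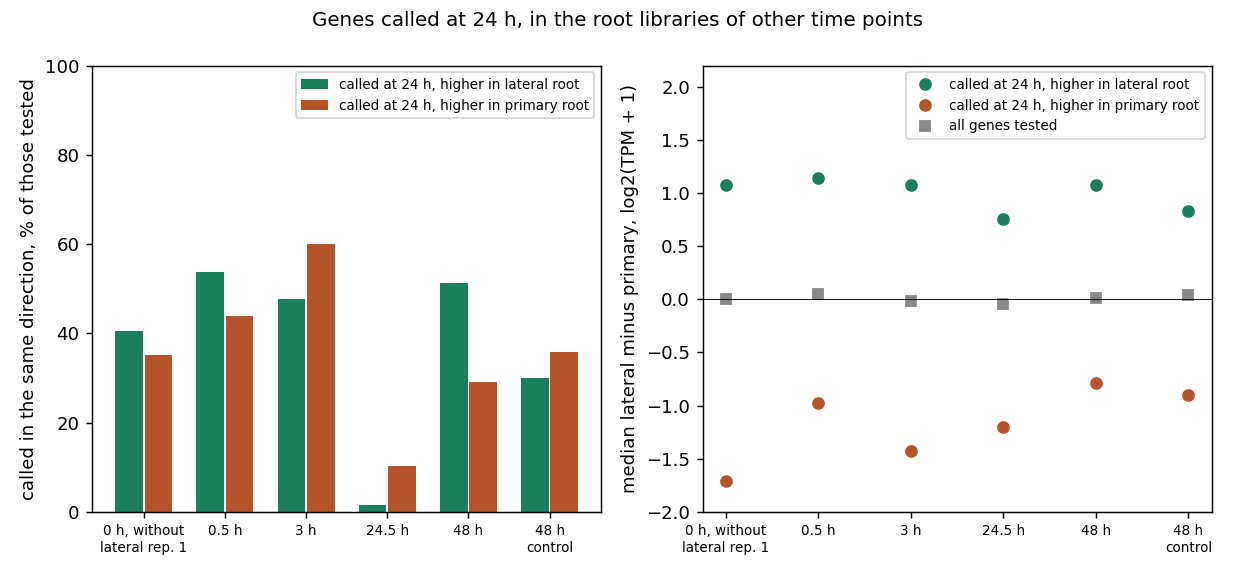
Genes called at 24 h, followed in the root libraries of 6 other fits: the left panel gives the share that was called again in the same direction, in percent of those tested, and the right panel the median difference lateral minus primary root in log2(TPM + 1). Green stands for the 133 genes higher in lateral root, orange for the 989 higher in primary root and grey squares for all genes tested; the medians of both lists stay on their own side of 0 in every fit shown. The 0 h fit shown leaves out lateral root replicate 1, and among the fits shown the shares are lowest at 24.5 h; with all 0 h libraries they were 0%.

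The level of NRT2.1 differed far more between time groups than between the tissues. SORBI_3004G009500, the NRT2.1 identifier with the higher level, had a mean of 539 ± 186 TPM (SD, n = 3) in lateral root and 253 ± 23.6 TPM in primary root at 24 h of deprivation. In the 48 h control the means were 5.58 ± 2.80 and 2.02 ± 1.47 TPM, and at 3 h of deprivation 142 ± 11.7 and 48.8 ± 9.98 TPM. Lateral root had the higher mean in each of these groups. The difference between tissues was 1.03 on the log2 scale at 24 h and 1.14 in the control, and its change was not called (adjusted p = 0.984 in limma with Benjamini-Hochberg adjustment). AspAT, by contrast, was lower in lateral root in the same groups, with 15.4 ± 0.873 against 42.6 ± 12.2 TPM in the control and 31.2 ± 5.28 against 60.4 ± 11.7 TPM at 3 h.

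Whether the tissue difference at 24 h of deprivation differed from that of the control was tested directly, as an interaction over 12 libraries. Of 22280 genes, 19 passed (0.0853%): 16 in which the balance lay further towards primary root at 24 h and 3 in which it lay further towards lateral root. In the sources used here the 19 carry no name or description, and 10 are ENSRNA identifiers, which mark annotated non-coding RNA genes. The count depended on single libraries: leaving out 1 library at a time gave between 0 and 41 calls, with 0 without lateral root control replicate 1 or primary root control replicate 3 and 1 without lateral root control replicate 2.

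SORBI_3006G174975 showed the pattern most plainly among protein-coding identifiers. It was at 3.28, 2.12 and 2.4 TPM in lateral root at 24 h, against 16.1, 17.2 and 22.9 TPM in primary root, and in the control at 13.8, 20.9 and 12.9 TPM in lateral root and 15, 13.7 and 15 TPM in primary root. Primary root was thus at a like level in both groups, and lateral root was low only at 24 h of these 2 groups. The change of the tissue difference was -2.54 on the log2 scale (SE 0.28, adjusted p = 0.02 in limma with Benjamini-Hochberg adjustment). SORBI_3001G513100, the gene with the largest tissue difference at 24 h, had a change of -2.46 (adjusted p = 0.0435 in limma with Benjamini-Hochberg adjustment). Its lateral root libraries were at 20.2, 16.2 and 12.2 TPM in the control, and its primary root libraries at 35.3, 43.0 and 33.3 TPM. Neither pattern was particular to 24 h. The tissue difference of SORBI_3006G174975 was -2.45 at 24 h, and -0.70, -2.43 and -0.14 at 0.5, 3 and 48 h. That of SORBI_3001G513100 was -3.62 at 24 h, and -1.25, -3.93 and -1.37 at 0.5, 3 and 48 h.

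Of the 10 ENSRNA identifiers called, ENSRNA049483596 and ENSRNA049483597 had nearly parallel values, and they were not alone in this. The first was at 18.9, 14.1 and 20.6 TPM in lateral root and 66.1, 65.6 and 95.6 TPM in primary root at 24 h, and at 49.8, 49.1 and 37.2 TPM and 44.9, 30.0 and 33.3 TPM in the control (change -2.35, adjusted p = 0.02 in limma with Benjamini-Hochberg adjustment). The second had a change of -2.28. Such genes can exist in near-identical copies among which reads are divided, and the libraries were made from poly(A) RNA, so these identifiers are reported as uncertain. ENSRNA049483594 had the largest change, -2.83, through lateral root of the control alone, at 11.2, 15.7 and 12.5 TPM, while its other 9 libraries were at 2.07 TPM or less. The 3 genes that moved towards lateral root, SORBI_3008G065600 (2.44), ENSRNA049483104 (2.36) and ENSRNA049481225 (1.73), never exceeded 3.52 TPM in these groups.

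**Figure D5:**
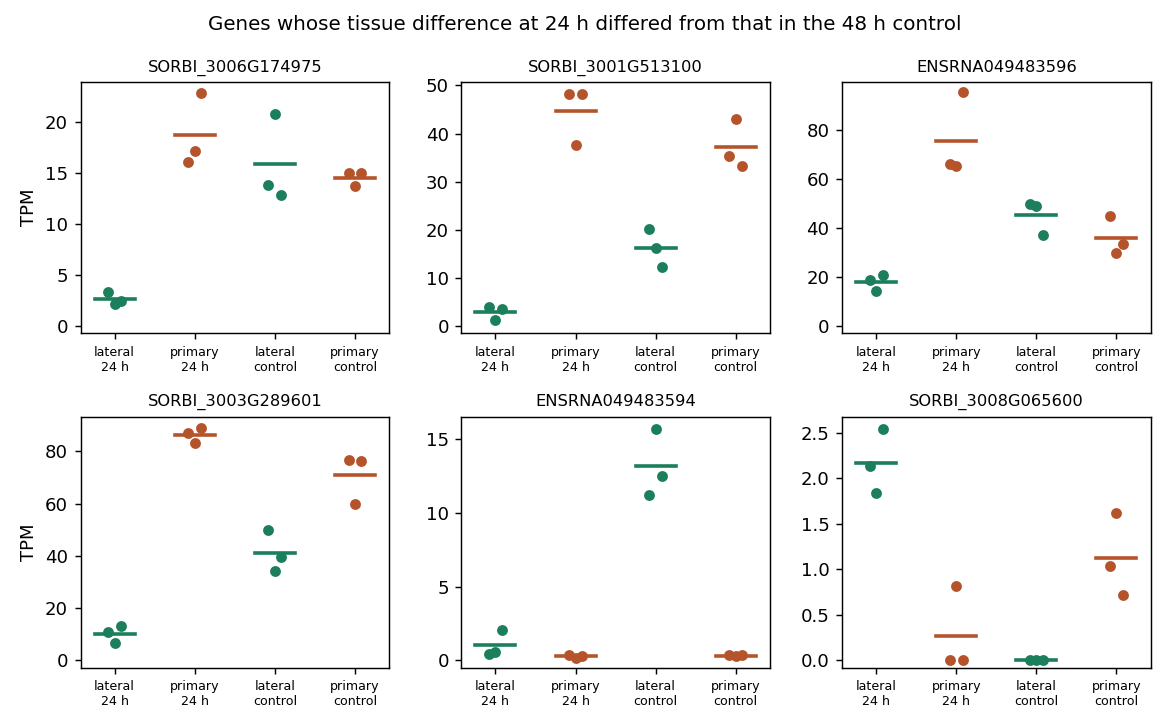
TPM of 6 of the 19 genes whose tissue difference at 24 h differed from that of the 48 h control, with a point for each of 3 libraries and a bar at the mean, green for lateral and orange for primary root. In the first 4 genes lateral root is lower at 24 h than in the control while primary root is not, and in the last 2 all values or all but 1 group are near 0.

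Allantoinase, an enzyme of purine breakdown, was the 1 described gene whose change passed on the adjusted p but not on the fold threshold. It was at 234, 255 and 227 TPM in lateral root and 179, 173 and 160 TPM in primary root at 24 h, and the tissue difference changed from -0.29 in the control to 0.48 (change 0.77, adjusted p = 0.0435 in limma with Benjamini-Hochberg adjustment). Against 0 h, 0 of 22374 genes were called for a change of their tissue difference in limma (0%), with 940 at an unadjusted p under 0.05. Without lateral root 0 h replicate 1 the count was again 0 of 22218, with 1938 at an unadjusted p under 0.05. Leaving out lateral root 0 h replicate 3 instead, which keeps replicate 1, gave 211 calls, 210 of them towards lateral root. In simulated data the fit with all 0 h libraries recovered 66 of 200 genes changed by 2 on the log2 scale. A count of 0 there thus does not show that no gene changed.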

How the data were processed

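The authors deposited 1 TPM column per library, without scaling between libraries. Per the labels and methods, poly(A) reads were trimmed (Trimmomatic), aligned to the BTx623 genome (STAR) and quantified (StringTie). TPM keep no depth, so precision rests on the spread of 3 libraries per group. The tables hold 35567 genes. All 63 columns were mapped by name and 0 were left over.

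Values were moved to the log2(TPM + 1) scale, and limma 3.58.1 (R 4.3.3) was fitted with trended eBayes and Benjamini-Hochberg adjustment. The interactions were fitted over 12 libraries each. Exact permutation of 3 against 3 libraries cannot go below p = 0.1 and was not used. In simulated data the noise was normal on the log2 scale, and changed genes were drawn from those with a mean TPM of at least 5. For the 24 h comparison, 185 of 200 genes changed by 2 on the log2 scale were recovered with 8 false calls over 21306 genes. At a change of 1.5 it was 173 of 200 with 10 false calls. For the interaction with 0 h it was 66 of 200 with 1 false call over 22374 genes, and 7 of 200 at a change of 1.5. Figures were drawn with matplotlib 3.10.9.

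Genes named were the network's nitrogen, carbon and hormone genes, the 5 largest called TF differences per direction, the 10 largest called differences per direction whose groups did not overlap and whose higher group had a mean TPM of at least 5, and the 5 largest interaction calls per direction. Called described genes, and other genes outside these groups, were chosen after their values were seen. The members and lists were chosen with earlier results of these data known. Of the identifiers, 0 matched the reference gene list, so the planned keyword lists could be applied only to the 354 described identifiers. Alternatives changed the pseudocount (0.1), the filter (none, or a mean TPM of 5), the scaling (median of ratios, quantile), the trend, the fold threshold, the block and the libraries fitted. The fits that leave out 1 library at 24.5 h and 0 h were chosen after seeing the data.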

Additional observations from a re-analysis of the deposited data

Results flagged for a closer look

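The tissue difference at 24 h differed from that in the 48 h control in 19 genes by the interaction test in limma. The 5 named changes towards primary root were ENSRNA049483594 (-2.83), SORBI_3006G174975 (-2.54), SORBI_3001G513100 (-2.46), ENSRNA049483596 (-2.35) and ENSRNA049483597 (-2.28), on the log2 scale. The 3 changes towards lateral root were SORBI_3008G065600 (2.44), ENSRNA049483104 (2.36) and ENSRNA049481225 (1.73). Of these 8, SORBI_3006G174975 lost its call under the fewest alternatives, 2 of 19, and SORBI_3001G513100 under the most, 14 of 19.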

How the results depend on the processing

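The count of 1122 genes became 3987 with the adjusted p alone and 562 in the fit of all 42 root libraries, but 1052 in that fit without lateral root 0 h replicate 1. Leaving out 1 of the 6 libraries gave 746 to 1191 calls, lowest without lateral root replicate 2, and without primary root replicate 2 calls higher in primary root were 77.3% of them. Scaling by median of ratios gave 92.8% and quantile normalization 85.6%. The 19 interaction calls against the 48 h control became 10 with a pseudocount of 0.1, 12 with a mean TPM of at least 5 and 10 with quantile normalization, and 0 to 41 with 1 library left out. The 0 calls of the interaction against 0 h became 1 without a filter and 0 to 211 with 1 library left out, 211 without lateral root 0 h replicate 3. At 24.5 h the 125 calls became 412 without primary root replicate 3, and at 0 h the 0 calls became 1233 without lateral root replicate 1. Same-numbered libraries of the tissues had deviations with correlations of 0.37, -0.13 and -0.08. With 3 libraries of each tissue these values cannot decide whether same-numbered libraries share plants, and the labels do not say. With the replicate block the counts were 1112, 25 and 0; of 44 named called genes 3 lost their call under the block, SORBI_3001G193600 (methionine gamma-lyase), SORBI_3003G168700 and SORBI_3003G235500. Of the 44, 23 kept their call under every alternative that tested them, 24 in the fit of all 42 root libraries and 39 in that fit without lateral root 0 h replicate 1, and 0 changed sign. Network genes called were 15, and 13 with a mean TPM of at least 5. The cause of these changes was not tested. TPM hold no depth, so no limit of detection can be given, and genes under 1 TPM in 4 or more of the 6 libraries were not tested.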

Other observations

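Among the 184 ENSRNA identifiers tested at 24 h, 22 were called, 5 higher in lateral and 17 higher in primary root, which is 12.0% beside 5.27% of all genes. Several ENSRNA identifiers, such as ENSRNA049483582 and ENSRNA049483591, had nearly the same values. They may share reads, so this share does not rest on independent genes. The deviations of lateral root replicate 1 and primary root replicate 1 from their group means had a correlation of 0.37 across genes, and those of lateral root replicate 3 and primary root replicate 2 one of 0.27; genes are not independent replicates, and the labels link neither pair.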
